A study of Mus musculus with 2 samples.

Results

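Subclusters 5 and 1 of the authors' fine clustering (resolution 0.8) were compared among cells sorted as CD45+JAML+ from mouse tumours. Subcluster 5 had been proposed as exhausted-like and subcluster 1 as effector CD8 T cells. The members were the 446 cells of subcluster 5 and the 785 cells of subcluster 1 that carried a hashtag, 1231 of the 5976 cells in the matrix. The hashtag names give 3 mice bearing B16F10 tumours (a mouse melanoma line) that had received an isotype control antibody, so both classes came from the same animals, tumour model and antibody and no other treatment was compared. The labels give no age, sex or strain, and TREG appears in the label of the extract. JAML, encoded by Jaml (chr9:45079183-45108534, mm10), is a junction adhesion molecule-like receptor that can costimulate T cells.

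CD8 T cells that meet antigen for a long time in tumours become exhausted: inhibitory receptors such as PD-1 accumulate on them, the transcription factor Tox is induced, and the capacity to renew declines. Cells earlier on this path, memory cells and recent arrivals keep factors such as Tcf7 and Klf2 and the receptors for leaving tissue. Granzymes and perforin, which kill target cells, can be found in either state.

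The mice contributed very unequally. Subcluster 5 held 315, 92 and 39 cells in mice 1, 2 and 3, and subcluster 1 held 64, 124 and 597 cells. Of the cells in the authors' Cd3g and Pdcd1 clusters, subcluster 5 was 31.3% (28.4 to 34.2%), 18.5% (15.2 to 22.2%) and 3.02% (2.15 to 4.10%), and subcluster 1 was 6.36% (4.93 to 8.04%), 24.9% (21.2 to 29.0%) and 46.2% (43.4 to 48.9%). Intervals on shares are exact Clopper-Pearson 95% intervals and cover counting error only. Cells of subcluster 5 were also deeper, with medians of 20124, 24624 and 23648 UMIs (unique molecular identifiers, each counting 1 captured RNA molecule), against 8116, 8509 and 8592 in subcluster 1. The summed classes held 6888144, 2336237 and 866254 UMIs for subcluster 5 and 593323, 1122410 and 5286142 for subcluster 1. Median mitochondrial shares were 2.23, 2.11 and 2.11% in subcluster 5 and 2.02, 2.07 and 1.91% in subcluster 1, and 0 cell barcodes were repeated.

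**Figure D1:**
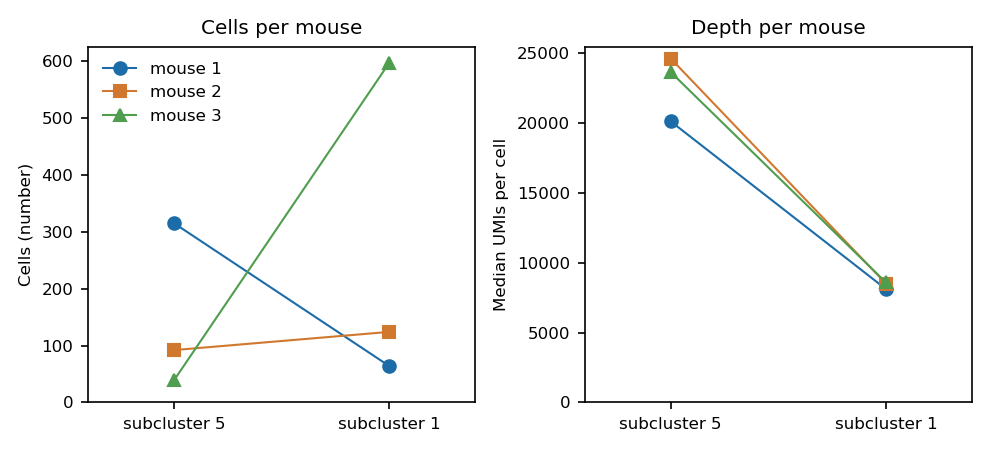
Number of cells (left) and median UMIs per cell (right) in subclusters 5 and 1, with 1 line for each of the 3 mice. Mouse 1 gave most cells of subcluster 5 (315) and mouse 3 most cells of subcluster 1 (597), while the depth of subcluster 5 was above that of subcluster 1 in each mouse.

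The UMIs of all cells of a class in a mouse were added up and the classes compared within mice with edgeR's quasi-likelihood F test. Levels are in CPM (counts scaled to the UMI total of that class and mouse), listed for mice 1, 2 and 3 in that order. Fold changes are log2 of subcluster 5 over subcluster 1 with a standard error (SE, n = 3 mice). The SE is the absolute log2 fold change divided by the square root of edgeR's F statistic. It does not measure the spread of fold changes between single mice, which can be wider. The authors had built the clusters from these same counts, so the adjusted p-values describe how regular a difference was over mice and are no independent test. To lessen this, UMIs were split at random into 2 sets, the classes were rebuilt from the first set and compared in the second, called held-out UMIs below. The rebuilt classes were picked by their overlap with the authors' subclusters, so the held-out comparison is not fully independent either. Of the rebuilt class matched to subcluster 5, 84.4% of 506 cells were from it, and of that matched to subcluster 1, 64.5% of 1074 cells. In mouse 1 only 23 of the 54 rebuilt cells matched to subcluster 1 were from it, so held-out results of that mouse rest largely on other cells. A gene described as having risen or fallen moved that way in each of the 3 mice, except where a mouse is named.

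Subcluster 5 carried CD8 T cell transcripts in all mice, while subcluster 1 of mouse 1 was mixed. A cell with UMIs of Cd8a or Cd8b1 and of a Cd3 gene, and none of Cd4, made up 94.6, 97.8 and 97.4% of subcluster 5 and 62.5% (49.5 to 74.3%), 86.3 and 94.5% of subcluster 1. Cd4 UMIs were found in 3.81, 2.17 and 0% of cells in subcluster 5 (0 of the 39 cells of mouse 3) and 17.2, 9.68 and 4.19% in subcluster 1. The summed level of 4 measured CD4 T cell markers was 12.3, 6.42 and 8.08 CPM in subcluster 5, against 119.7, 69.5 and 28.4 CPM in subcluster 1. The plasmacytoid dendritic subcluster 0 had 178, 159 and 188 CPM, with Cd40lg at 0 in it. Cd40lg had 0.871, 3.42 and 0 CPM in subcluster 5, against 16.9, 10.7 and 3.03 CPM in subcluster 1. Which cells these transcripts came from was not tested. The sum of 6 gamma-delta T cell markers was 97.4, 87.7 and 33.5 CPM in subcluster 5, against 200.6, 48.1 and 33.5 CPM in subcluster 1. Restricting both classes to the CD8 gate left 2533 of 8276 genes called (30.6%), and named genes that lost their call in it are given with their values below.

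In the whole comparison, 2889 of 8436 tested genes passed an adjusted p of 0.05 (34.2%), 1485 of them higher (17.6%) and 1404 lower (16.6%) in subcluster 5. These shares are the background for the counts of list members below, and counts in another setting have the shares of that setting. Without mouse 2, 853 of 9586 genes were higher and 770 lower, and without mouse 3, 1087 and 1058 of 8595. In thinned cells 11.1% were higher and 11.6% lower. In held-out UMIs, 2278 of 7292 genes passed (31.2%), 15.9% higher and 15.3% lower, and another random split gave 32.2%. Of the 2682 original calls that could be tested there, 1994 passed again in the same direction and 7 had the opposite sign. After matching cells of both classes on total UMIs within each mouse, which kept 30, 18 and 16 cells per class, 278 of 3526 genes passed (7.88%), 3.83% higher and 4.06% lower. Over the 1689 original calls testable there, the median ratio of the matched to the original log2 fold change was 0.496, and 204 had the opposite sign.

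**Figure D2:**
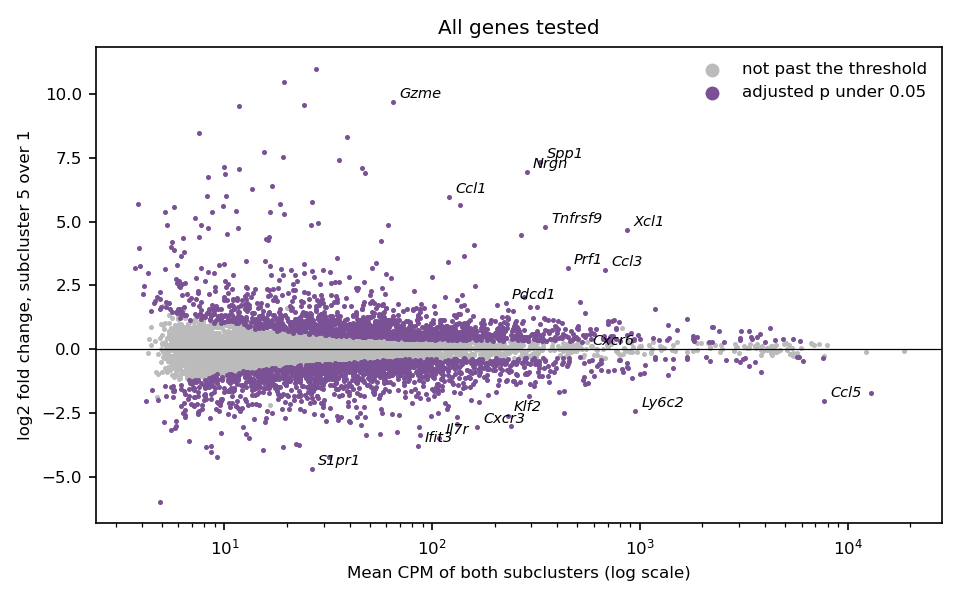
Each of the 8436 tested genes by its mean CPM over both subclusters (log scale) and its log2 fold change, subcluster 5 over 1, with genes past an adjusted p of 0.05 in purple. Nrgn, Tnfrsf9, Xcl1 and Prf1 lie above 0 and S1pr1, Il7r and Ifit3 below it. Fold changes of genes with no UMI in 1 class depend on edgeR's prior count.

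Markers listed for exhausted CD8 T cells were mostly higher in subcluster 5, while those listed for effector cells were divided between the classes, which goes against the name effector for subcluster 1. The classes are therefore called by their numbers. These marker lists were chosen with earlier results of these data known. Of 13 exhaustion markers, 8 rose in subcluster 5 (median log2 fold change 1.30), against 17.6% of all genes. Of 13 tested effector markers, 3 rose in subcluster 5, 5 fell and 5 did not pass. Among matched cells 5 of 10 rose and 2 fell, beside 3.83 and 4.06% of all genes. Of 9 memory markers, 7 were lower in subcluster 5. Gzmk, the granzyme proposed as a mark of the pair, was the higher of the classes in subcluster 1.

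Inhibitory receptors restrain T cell activation when they meet their ligands. Of 15 tested, 7 rose in subcluster 5, 2 fell and 6 did not pass, with a median log2 fold change of 0.92 beside -0.01 over all tested genes, of which 17.6% rose and 16.6% fell. The median was 0.44 without mouse 2 and 0.46 without mouse 3. In held-out UMIs 7 of 15 rose and 3 fell. Pdcd1 (chr1:94038305-94052553), which encodes PD-1, had 339, 340.3 and 367 CPM in subcluster 5, against 129.8, 92.7 and 85.7 CPM in subcluster 1. It was high in every mouse of subcluster 5 and also present in subcluster 1, and the classes did not overlap (log2 fold change 1.82 ± 0.15 SE, adjusted p = 2.1e-06). After thinning every cell to 6575 UMIs, a Pdcd1 UMI was found in 83.8% of subcluster 5 (95% exact interval 80.1 to 87.1%) and 35.4% of subcluster 1 (31.8 to 39.2%). The plasmacytoid dendritic subcluster 0, a cell type without this receptor, had 0.756%. Without thinning the shares were 96.9, 40.9 and 2.69%, at median depths of 21106.5, 8550 and 13482 UMIs.

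Havcr2 (chr11:46454935-46481255), which encodes TIM-3, separated the classes further. Its levels were 108, 107 and 67.0 CPM in subcluster 5, against 33.7, 4.45 and 3.59 CPM in subcluster 1. Subcluster 1 of mouse 1 stood above the same class of the other mice, without reaching subcluster 5 (log2 fold change 3.38 ± 0.37 SE, adjusted p = 2.6e-05). Among cells matched on depth its fold change was 1.69 with adjusted p = 0.0064. Lag3, whose product binds MHC class II, had 316, 412 and 298 CPM in subcluster 5, against 145, 119 and 96.9 CPM in subcluster 1, without overlap (log2 fold change 1.54 ± 0.14 SE, adjusted p = 5.2e-06). Cd200 (3.03 ± 0.26), Cd200r1 (1.96 ± 0.30), the ectonucleotidase gene Entpd1 (1.30 ± 0.23) and Cd244 (1.04 ± 0.33) completed the group that rose. Cd244 overlapped between classes, at 25.4 CPM in subcluster 5 of mouse 3 and 37.1 CPM in subcluster 1 of mouse 1, and without mouse 2 it did not pass (0.44 with adjusted p = 0.30), nor did it in the CD8 gate (0.87 with adjusted p = 0.065).

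Other inhibitory receptors did not follow. Ctla4 had 139.9, 128 and 107 CPM in subcluster 5, against 109.5, 97.1 and 119.6 CPM in subcluster 1, which overlapped (log2 fold change 0.20 ± 0.14 SE, adjusted p = 0.31), and Tigit had a log2 fold change of 0.92 ± 0.39 (adjusted p = 0.090). Cd160 and Btla did not pass either, with -0.30 ± 0.17 and -0.63 ± 0.39. Cd160 did pass as lower in subcluster 5 among matched cells (-0.74 with adjusted p = 0.033) and in held-out UMIs (-0.37 with adjusted p = 0.048). Nt5e, which encodes the ectonucleotidase CD73, fell by 2.19 on the log2 scale, and Vsir, which encodes VISTA, fell by 0.51. Vsir did not pass without mouse 2 (-0.34 with adjusted p = 0.31) or mouse 3 (-0.47 with adjusted p = 0.12), whereas Tigit (1.41 with adjusted p = 0.017) and Cd160 (-0.55 with adjusted p = 0.0051) passed without mouse 1. PD-1, TIM-3 and LAG-3 transcripts were higher in subcluster 5, while CTLA-4, TIGIT, CD160 and BTLA transcripts did not pass the test with all cells and mice.

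**Figure D3:**
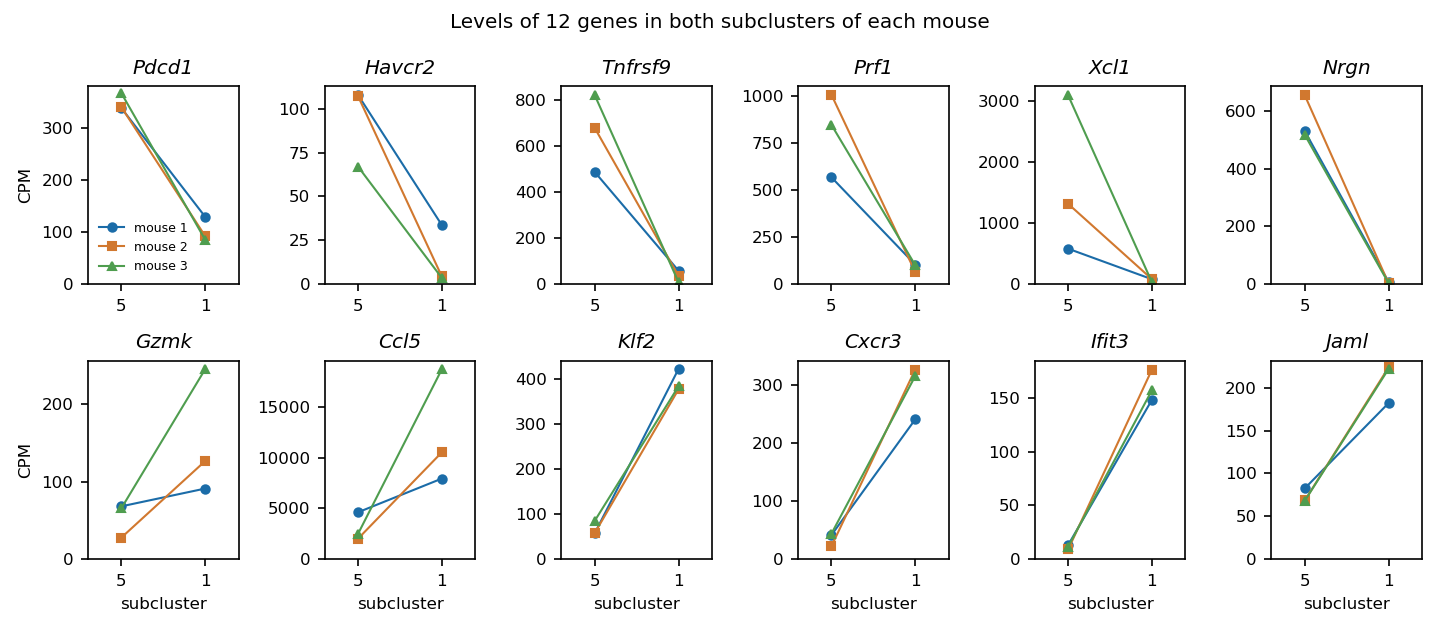
CPM of 12 genes in subcluster 5 (left in each panel) and subcluster 1 (right), with 1 line for each of the 3 mice and each axis starting at 0. The upper 6 genes are higher in subcluster 5 of every mouse and the lower 6 are lower in it.

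Transcription factors linked to exhaustion rose in 8 of 15 tested cases and fell in 3 (median log2 fold change 0.73). In held-out UMIs 8 of 14 rose and 2 fell, and without mouse 2 it was 5 and 3 of 15. Tox, a factor that drives the exhausted state, had 320.0, 219 and 284 CPM in subcluster 5, against 189, 155 and 154 CPM in subcluster 1. It was higher in subcluster 5 of every mouse and far from absent in subcluster 1 (log2 fold change 0.73 ± 0.13 SE, adjusted p = 7.0e-04). Nr4a2, an orphan receptor induced by T cell receptor signals, had 198, 181 and 279 CPM in subcluster 5, against 42.1, 73.9 and 112 CPM in subcluster 1 (log2 fold change 1.53 ± 0.17 SE, adjusted p = 2.3e-05), and Nr4a3 rose by 1.58 ± 0.32. Bhlhe40 (1.24 ± 0.14) and Ikzf2, which encodes Helios (2.82 ± 0.39), also rose without overlap. Eomes, Batf and Prdm1 passed with smaller changes (0.91 ± 0.23, 0.45 ± 0.14 and 0.73 ± 0.26). Maf (-2.42 ± 0.41), Ikzf3 (-0.70 ± 0.14) and Id2 (-0.41 ± 0.12) fell. Without mouse 2, Eomes (0.75 with adjusted p = 0.082), Batf (0.51 with adjusted p = 0.097) and Prdm1 (0.58 with adjusted p = 0.22) did not pass. Eomes was also lost without mouse 3 (0.85 with adjusted p = 0.081), Batf without mouse 1 (0.34 with adjusted p = 0.10) or 3 (0.51 with adjusted p = 0.064), Prdm1 without mouse 1 (0.60 with adjusted p = 0.13), and Id2 without mouse 1 (-0.37 with adjusted p = 0.061) or 3 (-0.32 with adjusted p = 0.099). In the CD8 gate Maf (-0.17 with adjusted p = 0.81), Id2 (-0.26 with adjusted p = 0.15), Eomes (0.67 with adjusted p = 0.063) and Prdm1 (0.66 with adjusted p = 0.075) did not pass. In held-out UMIs Eomes did not pass (0.59 with adjusted p = 0.18). Ikzf2 was 1.22 with adjusted p = 0.0053 among matched cells and 1.24 with adjusted p = 0.087 without division UMIs, where Nr4a3 did not pass either (1.29 with adjusted p = 0.18). Among matched cells Batf (0.26 with adjusted p = 0.70) and Ikzf3 (-0.05 with adjusted p = 0.94) did not pass. Irf8, listed with effector factors, had 229.5, 332 and 248 CPM in subcluster 5, against 70.8, 54.3 and 35.0 CPM in subcluster 1 and was several times higher in each mouse (log2 fold change 2.46 ± 0.18 SE, adjusted p = 1.3e-06).

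Factors of memory and self-renewal moved the other way, 8 of 11 lower and 1 higher in subcluster 5 (median log2 fold change -1.51). In held-out UMIs 8 of 11 fell. Tcf7, which encodes TCF1, had 13.2, 13.7 and 31.2 CPM in subcluster 5, against 96.1, 139 and 52.6 CPM in subcluster 1. In mouse 3 the classes were closest, with subcluster 5 at its highest and subcluster 1 at its lowest, and they did not overlap (log2 fold change -2.48 ± 0.35 SE, adjusted p = 1.6e-04). Lef1, the partner of TCF1, had 11.8, 10.3 and 3.46 CPM in subcluster 5, against 62.4, 74.8 and 77.6 CPM in subcluster 1 (log2 fold change -2.86 ± 0.26 SE, adjusted p = 5.1e-06). Among cells matched on depth, Tcf7 had -3.22 with adjusted p = 1.9e-04 and Lef1 -3.99 with adjusted p = 1.8e-04. Foxo1 (-1.51 ± 0.19), Foxp1 (-1.43 ± 0.13) and Satb1 (-1.27 ± 0.28) fell too. Id3 fell over the 3 mice (-2.05 ± 0.58), although mouse 1 had 5.95 CPM in subcluster 5 and 3.37 CPM in subcluster 1. Without mouse 2 the Id3 change was -0.37 with adjusted p = 0.67. Bach2 and Myb did not pass (0.27 ± 0.44 and 0.62 ± 0.37), although Bach2 did without mouse 1 (0.94 with adjusted p = 0.029). Satb1 did not pass among matched cells (-0.76 with adjusted p = 0.36).

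Genes for leaving tissue were reduced, with 8 of 9 tested members lower and Ccr7 higher in subcluster 5 (median log2 fold change -2.22). In held-out UMIs 6 of 8 fell and 1 rose. Klf2 (chr8:72319033-72321656) encodes a factor that switches on S1pr1, and had 57.8, 58.2 and 85.4 CPM in subcluster 5, against 423, 378 and 384 CPM in subcluster 1. The levels were alike over the mice within each class and far apart between classes (log2 fold change -2.59 ± 0.15 SE, adjusted p = 1.2e-07), and among cells matched on depth the change was -1.55 with adjusted p = 1.5e-05. S1pr1 (chr3:115710433-115715072), the receptor for sphingosine 1-phosphate that guides cells out of tissue, had 2.61, 0.856 and 3.46 CPM in subcluster 5, against 69.1, 47.2 and 35.4 CPM in subcluster 1. It was at a few CPM or less in subcluster 5 of every mouse (log2 fold change -4.68 ± 0.34 SE, adjusted p = 1.1e-06). Klf3, a related factor, had 3.63, 0.428 and 5.77 CPM in subcluster 5, against 45.5, 68.6 and 67.7 CPM in subcluster 1 (log2 fold change -4.22 ± 0.38 SE, adjusted p = 4.8e-06). Both S1pr1 and Klf3 were too low to be tested among cells matched on depth. Ly6c2, a surface antigen of memory and effector cells, had 328, 223 and 313 CPM in subcluster 5, against 1106, 1456 and 2250.2 CPM in subcluster 1 (log2 fold change -2.42 ± 0.18 SE, adjusted p = 1.3e-06). Its matched change was -1.23 with adjusted p = 4.1e-05. S1pr4 (-1.57 ± 0.17), Sidt1 (-1.84 ± 0.38) and Cxcr4 (-2.22 ± 0.37) fell as well. Ccr7 had 16.8, 42.8 and 56.6 CPM in subcluster 5, against 27.0, 16 and 11.2 CPM in subcluster 1, higher in subcluster 5 of mice 2 and 3 and lower in mouse 1 (log2 fold change 1.36 ± 0.41 SE, adjusted p = 0.021). In held-out UMIs the Cxcr4 change was -0.72 with adjusted p = 0.33. Sidt1 did not pass without division UMIs (-2.16 with adjusted p = 0.066). Ccr7 did not pass in the CD8 gate (1.27 with adjusted p = 0.054), without mouse 2 (1.27 with adjusted p = 0.078) or mouse 3 (0.51 with adjusted p = 0.38).

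Receptors that take cells through tissue and keep them there were divided. Of 8 chemokine receptors tested, 2 rose and 5 fell in subcluster 5 (17.6 and 16.6% of all genes), and among matched cells 3 of 6 rose and 2 fell. Cxcr3, the receptor for interferon-induced chemokines, had 41.5, 22.3 and 43.9 CPM in subcluster 5, against 241, 327 and 316 CPM in subcluster 1, without overlap (log2 fold change -3.04 ± 0.21 SE, adjusted p = 7.9e-07). Ccr2 (-2.22 ± 0.25) and Ccr9 (-1.59 ± 0.51, but higher in subcluster 5 of mouse 1) also fell. Ccr9 did not pass without mouse 2 (-1.16 with adjusted p = 0.22) or mouse 3 (-1.09 with adjusted p = 0.19). Cx3cr1 rose, with 45.1, 74.9 and 49.6 CPM in subcluster 5, against 5.06, 10.7 and 10.0 CPM in subcluster 1 (log2 fold change 2.58 ± 0.23 SE, adjusted p = 4.7e-06). Cxcr6, a receptor of tissue-resident and tumour-infiltrating cells, had 697, 549 and 416 CPM in subcluster 5, against 600.0, 462 and 590.0 CPM in subcluster 1, which overlapped (log2 fold change -0.00086 ± 0.14 SE, adjusted p = 0.998). Among cells matched on depth Cxcr6 was higher in subcluster 5 (1.01 with adjusted p = 1.9e-04). Ccr10 had 0 UMIs in subcluster 5 and 35 in subcluster 1, at least 16.8-fold lower in subcluster 5 when 3 UMIs over the class are allowed. Its levels in subcluster 1 were 18.5, 15.1 and 1.32 CPM, lowest in mouse 3. Ccr10 is also on the CD4 T cell marker list, and the part of other cells in this difference was not tested.

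Of 13 tested residency genes, 4 rose and 7 fell in subcluster 5 (17.6 and 16.6% of all genes). In held-out UMIs 5 of 11 rose and 5 fell, and among matched cells 4 of 10 rose and 1 fell. Itgae, which encodes the integrin chain CD103, had 1.31, 1.28 and 1.15 CPM in subcluster 5, against 18.5, 23.2 and 6.43 CPM in subcluster 1, low in both classes and lower in subcluster 5 of each mouse (log2 fold change -3.77 ± 0.47 SE, adjusted p = 6.4e-05). Itga1, which encodes CD49a, had 10.2, 5.99 and 6.93 CPM in subcluster 5, against 27.0, 46.3 and 112 CPM in subcluster 1 (log2 fold change -2.59 ± 0.34 SE, adjusted p = 8.9e-05). Cd69, which retains cells in tissue, fell to 137, 94.6 and 215 CPM in subcluster 5, against 273, 274 and 278 CPM in subcluster 1 (log2 fold change -0.95 ± 0.18 SE, adjusted p = 0.0013). Among cells matched on depth Itga1 and Cd69 no longer passed (-1.11 with adjusted p = 0.21 and -0.32 with adjusted p = 0.42). Rbpj (1.75 ± 0.16), Litaf (1.27 ± 0.17), Rgs1 (0.52 ± 0.11) and Prdm1 were those that rose, Rgs1 not passing without mouse 2 (0.43 with adjusted p = 0.066). Itgb7, the partner chain of CD103, fell (-3.37 ± 0.18), also among matched cells (-3.98 with adjusted p = 5.8e-08), while Itgav rose by 1.83 ± 0.22. Jaml itself, on which the cells had been sorted, had 82.6, 68.5 and 68.1 CPM in subcluster 5, against 182, 224 and 222 CPM in subcluster 1. It was lower in subcluster 5 of every mouse and the classes did not overlap (log2 fold change -1.50 ± 0.15 SE, adjusted p = 1.0e-05). Without division UMIs the Jaml change did not pass (-1.04 with adjusted p = 0.060). Among matched cells the Jaml change was -0.73 with adjusted p = 0.049. Thinned cells held a Jaml UMI in 37.5% of subcluster 5 and 65.8% of subcluster 1, beside 92.0% in the plasmacytoid dendritic subcluster 0, which expresses it. Without thinning these shares were 67.3, 71.7 and 98.7%.

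Of 18 tested killing genes, 7 were higher and 6 lower in subcluster 5 (17.6 and 16.6% of all genes), with a median log2 fold change of 0.02. Among matched cells 7 of 15 were higher and 2 lower, with a median of 0.50, where 3.83% of all genes were higher. In held-out UMIs 7 of 17 rose and 5 fell. Prf1, which encodes perforin, had 569, 1007 and 847 CPM in subcluster 5, against 104, 65.9 and 102 CPM in subcluster 1. It was several times higher in subcluster 5 of each mouse (log2 fold change 3.17 ± 0.20 SE, adjusted p = 3.6e-07) and remained so among matched cells (3.12 with adjusted p = 2.4e-09). Gzmb, which encodes granzyme B, had 1017, 1288 and 742 CPM in subcluster 5, against 725, 241 and 887 CPM in subcluster 1, lower in subcluster 5 of mouse 3 only (log2 fold change 0.85 ± 0.34 SE, adjusted p = 0.070). It passed without mouse 3 (1.44 with adjusted p = 9.9e-04), without mouse 1 (1.04 with adjusted p = 0.011) and among matched cells (0.78 with adjusted p = 0.048). Gzmc had 141, 1174 and 212 CPM in subcluster 5, against 77.5, 3.56 and 5.11 CPM in subcluster 1 (log2 fold change 4.46 ± 0.77 SE, adjusted p = 7.0e-04) and Gzmf had 49.7, 514 and 220.5 CPM in subcluster 5, against 30.3, 2.67 and 1.14 CPM in subcluster 1 (log2 fold change 5.66 ± 0.74 SE, adjusted p = 1.0e-04). Both were highest in subcluster 5 of mouse 2, and in subcluster 1 they were highest in mouse 1. Gzme, of the same gene cluster, had 11.5, 226 and 152 CPM in subcluster 5, against 0, 0 and 0.189 CPM in subcluster 1. These granzyme genes resemble one another in sequence, so reads could have been shared among them.

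Gzmk (chr13:113171608-113225908) encodes granzyme K and had 68.1, 27.8 and 65.8 CPM in subcluster 5, against 91.0, 127 and 245 CPM in subcluster 1. It was lower in subcluster 5 of every mouse, most clearly in mice 2 and 3 (log2 fold change -1.48 ± 0.25 SE, adjusted p = 6.9e-04). Thinned cells held a Gzmk UMI in 24.9% of subcluster 5 (21.0 to 29.2%) and 63.8% of subcluster 1 (60.0 to 67.5%), beside 0.540% in subcluster 0. Without thinning they were 40.8, 66.9 and 0.859%. In mice 1, 2 and 3 the thinned share was 28.66, 11.96 and 25.64% in subcluster 5, against 33.3, 38.1 and 71.2% in subcluster 1. The classes were close in mouse 1 and furthest apart in mouse 3. The pooled shares weigh the mice unequally, since mouse 1 gave most cells of subcluster 5 and mouse 3 most cells of subcluster 1. Among cells without a division UMI, in mice 1 and 2, the Gzmk change was -0.86 with adjusted p = 0.16. Gzma fell (-2.27 ± 0.58) but had 24.2 CPM in subcluster 5 and 11.8 CPM in subcluster 1 of mouse 1. Gzmm (-4.23 ± 0.53), Ctsw (-0.57 ± 0.13), Lamp1, whose product marks degranulation (-1.56 ± 0.15), and Ctla2a (-0.65 ± 0.15) fell. Serpinb9 (1.59 ± 0.16) and Serpinb6b (1.92 ± 0.14), inhibitors that protect a cell from its own granule proteases, rose. Without mouse 2, Gzma (-1.76 with adjusted p = 0.058) and Ctsw (-0.50 with adjusted p = 0.056) did not pass, and Gzma did not without mouse 3 (-1.51 with adjusted p = 0.053). Gzmm rested on 9 UMIs in subcluster 5, and in held-out UMIs it did not pass (-1.73 with adjusted p = 0.070). Among matched cells Ctsw (-0.16 with adjusted p = 0.71) and Ctla2a (0.02 with adjusted p = 0.98) did not pass. Nkg7, Fasl, Srgn and Serpina3g did not pass with all cells, and Fasl did without mouse 2 (-0.76 with adjusted p = 0.024).

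Of 16 cytokine and chemokine genes tested, 10 rose and 2 fell (median log2 fold change 1.63), and in held-out UMIs 10 of 15 rose and 3 fell. Xcl1 (chr1:164931644-164935527), whose product attracts cross-presenting dendritic cells, had 583, 1318 and 3097 CPM in subcluster 5, against 82.6, 84.6 and 35.4 CPM in subcluster 1. It was highest in subcluster 5 of mouse 3 and lowest in subcluster 1 of the same mouse (log2 fold change 4.66 ± 0.49 SE, adjusted p = 1.9e-05). Matching on depth lowered the change to 2.01 with adjusted p = 2.4e-04. Ccl3 had 1546, 1311 and 786 CPM in subcluster 5, against 209, 72.2 and 144 CPM in subcluster 1 (log2 fold change 3.12 ± 0.24 SE, adjusted p = 1.4e-06) and Ccl4 had 2780.4, 1722 and 877 CPM in subcluster 5, against 622, 374 and 683 CPM in subcluster 1 (log2 fold change 1.59 ± 0.27 SE, adjusted p = 6.5e-04). Neither overlapped between classes, and within subcluster 5 both were highest in mouse 1. Ccl1 (5.95 ± 0.24), Ccl9 (3.12 ± 0.25), Csf1 (3.24 ± 0.51) and Csf2, which encodes GM-CSF (5.29 ± 0.42), rose as well. Ifng, which encodes interferon gamma, had 529, 577 and 337 CPM in subcluster 5, against 233, 60.6 and 187 CPM in subcluster 1 (log2 fold change 1.67 ± 0.31 SE, adjusted p = 0.0012). Tnf and Il2 did not pass (-0.47 ± 0.25 and -1.10 ± 0.55), although Il2 did without mouse 2 (-2.96 with adjusted p = 0.012).

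Spp1, which encodes osteopontin, had 116, 1228 and 633 CPM in subcluster 5, against 6.74, 5.35 and 3.41 CPM in subcluster 1. It was uneven over the mice of subcluster 5, highest in mouse 2, and low in all of subcluster 1 (log2 fold change 7.34 ± 0.31 SE, adjusted p = 8.6e-09). Ccl5 (chr11:83525778-83530518), an abundant T cell chemokine, went the other way, with 4613, 2019 and 2504 CPM in subcluster 5, against 7928, 10515 and 18691 CPM in subcluster 1 (log2 fold change -2.02 ± 0.29 SE, adjusted p = 1.7e-04). Among matched cells that difference did not pass (-0.55 with adjusted p = 0.10). Ltb, which encodes lymphotoxin beta, fell by 0.84 on the log2 scale.

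Over the 17 tested costimulation genes 7 rose and 4 fell in subcluster 5 (17.6 and 16.6% of all genes), and without mouse 3 it was 5 and 5 of 18. Tnfrsf9 (chr4:150914562-150946102) encodes 4-1BB, which is induced by recent antigen contact, and had 487, 678 and 821 CPM in subcluster 5, against 59.0, 36.5 and 9.65 CPM in subcluster 1. Every mouse of subcluster 5 was far above every mouse of subcluster 1 (log2 fold change 4.78 ± 0.43 SE, adjusted p = 4.7e-06). Tnfrsf4, which encodes OX40, had 151, 277 and 331 CPM in subcluster 5, against 25.3, 65.0 and 4.35 CPM in subcluster 1 (log2 fold change 3.66 ± 0.54 SE, adjusted p = 2.4e-04). The matched change was 3.00 with adjusted p = 4.3e-09 for Tnfrsf9 and 1.72 with adjusted p = 0.011 for Tnfrsf4. Tnfrsf18 (0.84 ± 0.20) and Crtam (1.46 ± 0.16) rose, whereas Cd28 (-0.80 ± 0.13) and Icos (-0.96 ± 0.22) fell. Cd27 did not pass (0.15 ± 0.12). Icos was lost in the CD8 gate (-0.32 with adjusted p = 0.20). Without mouse 3 Tnfrsf18 did not pass (0.47 with adjusted p = 0.061). Among matched cells Crtam (0.64 with adjusted p = 0.46), Cd28 (-0.21 with adjusted p = 0.65) and Icos (-0.09 with adjusted p = 0.93) did not.

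Of 11 tested NK receptor genes, 6 rose and 2 fell (17.6 and 16.6% of all genes), and in held-out UMIs 6 of 8 rose. Klre1 had 196, 212 and 244 CPM in subcluster 5, against 25.3, 21.4 and 19.9 CPM in subcluster 1, with a gap between classes in each mouse (log2 fold change 3.40 ± 0.17 SE, adjusted p = 3.1e-08). Klrd1 (1.10 ± 0.11) and Klrc1 (1.02 ± 0.14), which encode the inhibitory CD94 and NKG2A pair, and Klrk1, which encodes activating NKG2D (0.70 ± 0.17), rose, although Klrk1 did not pass without mouse 3 (0.41 with adjusted p = 0.071). Klrg1, a mark of terminal effector cells, was low in both classes, at 1.71 to 6.10 CPM in subcluster 5 and 5.06 to 9.08 CPM in subcluster 1. The Klr genes belong to a family of near copies, so their counts carry that uncertainty.

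Of 20 tested cytokine receptor genes, 5 rose and 10 fell (median log2 fold change -0.43), beside 17.6 and 16.6% of all genes. Without mouse 2 it was 5 and 4, in thinned cells 5 and 4 of 15, and among matched cells 2 and 2 of 12 with a median of 0.13. Over all genes, 853 rose and 770 fell of 9586 without mouse 2. In thinned cells 11.1 and 11.6% did, and among matched cells 3.83 and 4.06%. Il7r, the receptor chain for the survival cytokine IL-7, had 16.1, 17.6 and 26.6 CPM in subcluster 5, against 283, 262 and 43.5 CPM in subcluster 1. Subcluster 1 was high in mice 1 and 2 and much lower in mouse 3, where it still exceeded subcluster 5 (log2 fold change -3.47 ± 0.40 SE, adjusted p = 3.8e-05). Thinned cells held an Il7r UMI in 8.76% of subcluster 5, 15.1% of subcluster 1 and 79.4% of the plasmacytoid dendritic subcluster 0. Ifngr1 (-1.63 ± 0.13) and Ifnar2 (-1.79 ± 0.16), parts of the interferon receptors, fell, while Il2ra, which encodes CD25, (2.70 ± 0.37), Il2rb (1.19 ± 0.20) and Il18rap (1.09 ± 0.22) rose. Among matched cells Ifnar2 did not pass (-0.74 with adjusted p = 0.14), and without division UMIs neither Il2rb (1.10 with adjusted p = 0.095) nor Il18rap (0.65 with adjusted p = 0.16) did. T cell receptor signalling genes fell in 13 of 21 cases and rose in 0 at the adjusted threshold (median log2 fold change -0.55), among them Cd5 (-2.05 ± 0.23), Lat (-1.02 ± 0.13) and Fyn (-0.99 ± 0.12). Among matched cells 3 of the 21 were lower and 2 higher, with a median of -0.04. All 8 Gimap genes, GTPases of lymphocyte survival, fell (median log2 fold change -1.05), as did 8 of 8 in held-out UMIs. Gimap7, however, was higher in subcluster 5 of mouse 1. Among matched cells 2 of 8 passed as lower, beside 4.06% of all genes. Gimap7 did not pass without mouse 2 (-0.52 with adjusted p = 0.13) or mouse 3 (-0.54 with adjusted p = 0.080).

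Interferons induce a broad set of antiviral genes through factors that bind promoters at interferon-stimulated response elements. Of 48 tested interferon-response genes, 46 were lower in subcluster 5 and 0 were higher, against 16.6% lower among all genes, with a median log2 fold change of -1.49. In held-out UMIs 46 of 47 were lower, with a median of -1.99. Ifit3, an antiviral gene of the IFIT family, had 13.1, 8.99 and 11.5 CPM in subcluster 5, against 148, 176 and 157 CPM in subcluster 1. All mice of subcluster 5 lay far below all mice of subcluster 1 (log2 fold change -3.79 ± 0.19 SE, adjusted p = 3.1e-08). Isg15, a ubiquitin-like protein gene, had 54.9, 39.4 and 20.8 CPM in subcluster 5, against 187, 228 and 175 CPM in subcluster 1 (log2 fold change -2.32 ± 0.19 SE, adjusted p = 3.1e-06). Ifit1 had 11, 9.42 and 13.9 CPM in subcluster 5, against 37.1, 113 and 76.8 CPM in subcluster 1 (log2 fold change -2.63 ± 0.29 SE, adjusted p = 2.3e-05), and Rsad2, which encodes viperin, had 3.34, 0.856 and 0 CPM in subcluster 5, against 20.2, 18.7 and 14.9 CPM in subcluster 1 (log2 fold change -3.29 ± 0.48 SE, adjusted p = 2.2e-04). The regulators Irf1 (-1.65 ± 0.16), Irf7 (-2.11 ± 0.19) and Irf9 (-1.07 ± 0.16) fell too, and Gbp3 and Gbp5 did not pass. Gbp5 did pass as lower in the CD8 gate (-0.93 with adjusted p = 0.036) and in held-out UMIs (-1.40 with adjusted p = 0.0032). Irf9 did not pass among matched cells (-0.48 with adjusted p = 0.41). Without division UMIs Irf7 (-1.50 with adjusted p = 0.082), Irf9 (-0.56 with adjusted p = 0.26) and Isg15 (-1.48 with adjusted p = 0.11) did not.

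The promoters of 4 of these genes are shown because the response element lies in them. The sequences are from RefSeq (GRCm38.p6), 5′ to 3′ on the gene's strand, and capitals mark GAAANNGAAA or its reverse complement TTTCNNTTTC.
Ifit3 (chr19:34583363-34583426, + strand): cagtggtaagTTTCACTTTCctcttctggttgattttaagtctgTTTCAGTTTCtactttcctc
Ifit1 (chr19:34640775-34640836, + strand): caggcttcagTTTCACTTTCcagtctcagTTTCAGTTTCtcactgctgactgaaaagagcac
Isg15 (chr4:156200845-156200906, - strand): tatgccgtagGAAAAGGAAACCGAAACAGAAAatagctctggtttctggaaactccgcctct
Rsad2 (chr12:26456521-26456582, - strand): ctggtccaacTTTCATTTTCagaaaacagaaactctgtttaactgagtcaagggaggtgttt
The 3 matches of Isg15 overlap one another. From 250 bases before to 50 after the start, on either strand, the motif was in 24 of the 38 listed interferon genes with a RefSeq window (63.2%) and in 1079 of 27025 genes overall (3.99%). A match describes the letters and does not show binding in these cells.

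Fewer interferon genes passed when depth was made equal. With every cell thinned to 6575 UMIs, 39 of 45 were lower (11.6% of all genes were), and among matched cells 17 of 34 were lower (4.06% of all genes), with a median of -0.83. Ifit3 had -2.70 with adjusted p = 7.2e-06 among matched cells. Without cells holding a division UMI, which left mice 1 and 2, 14 of 40 were lower (2.97% of all genes, with 6.09% called in either direction). Of 8 markers of plasmacytoid dendritic cells, 5 could be tested, of which 2 were lower in subcluster 5 and 3 did not pass. Bst2 was the largest part of their sum, at 186, 170 and 156 CPM in subcluster 5, against 347, 374 and 305 CPM in subcluster 1. Their sum therefore mostly follows this 1 gene, and a sum without it was not compared. Ccr9, another of the 8, was higher in subcluster 5 of mouse 1 and lower in it in mice 2 and 3. Cox6a2 was higher in subcluster 5 of each mouse. The sum of the 8 was 326.8, 268.0 and 248.2 CPM in subcluster 5, against 439.9, 494.5 and 445.5 CPM in subcluster 1, with none of the 8 at 0. In the plasmacytoid dendritic subcluster 0 itself that sum was 16294 to 17431 CPM, and Ifit3 was 12.7, 6.88 and 2.68 CPM, below the level in subcluster 1. The part of such RNA in the interferon difference was not tested.

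**Figure D4:**
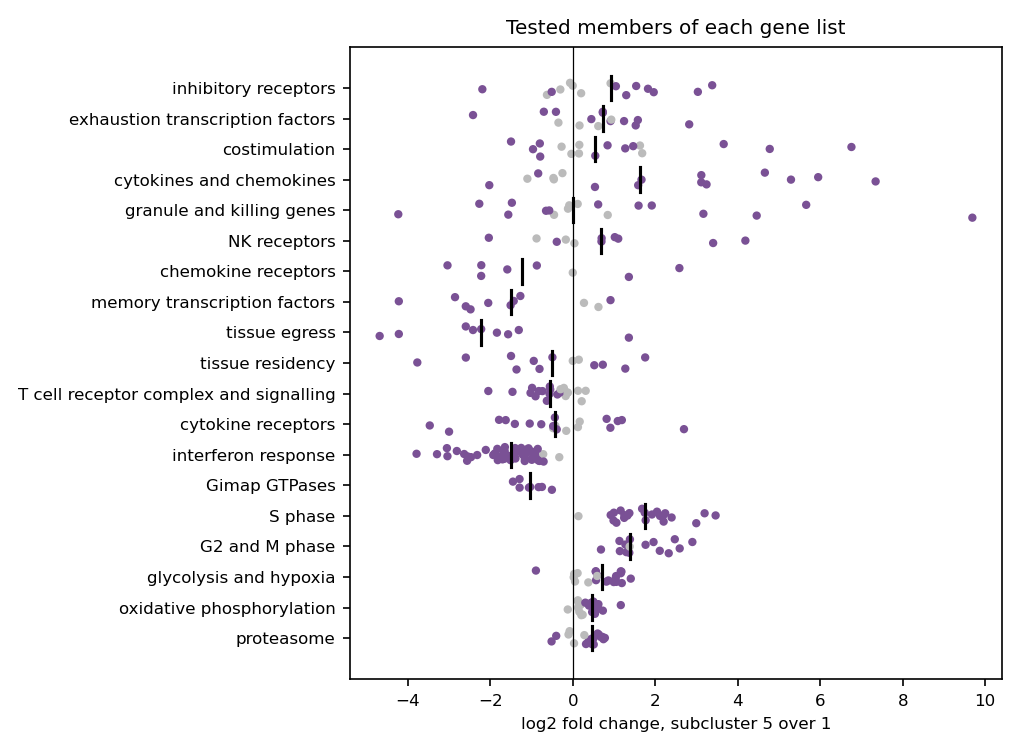
Log2 fold change (subcluster 5 over 1) of each tested member of 19 gene lists, purple where the adjusted p is under 0.05, with the list median as a black bar. The interferon and tissue egress lists lie left of 0 (medians -1.49 and -2.22) and cytokines and S phase right of it (1.63 and 1.75).

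Subcluster 5 was not free of dividing cells. After thinning, any UMI of 7 division genes was found in 54.4% of its cells (49.6 to 59.1%), against 29.3% of subcluster 1 (25.8 to 32.9%). The strongly dividing subcluster 8 had 98.2%, and subcluster 0, given as background, had 10.9%. Without thinning the shares were 77.1% in subcluster 5, 36.4% in subcluster 1, 98.8% in subcluster 8 and 20.6% in subcluster 0. Of 23 tested S phase genes, 22 rose in subcluster 5 (median log2 fold change 1.75), and of 15 tested G2 and M phase genes, 14 rose (1.39). Without mouse 2 the G2 and M phase count was 8 of 22, beside 853 of 9586 over all genes. Mki67, a mark of cycling cells, had 34.3, 49.2 and 20.8 CPM in subcluster 5, against 15.2, 10.7 and 12.1 CPM in subcluster 1 (log2 fold change 1.39 ± 0.28 SE, adjusted p = 0.0020). Dut, which removes uracil nucleotides before DNA synthesis, had 470.1, 487 and 379.8 CPM in subcluster 5, against 125, 116 and 89.1 CPM in subcluster 1, the classes being far apart (log2 fold change 2.04 ± 0.12 SE, adjusted p = 1.7e-07). Hells (2.11 ± 0.20), Mcm5 of the replicative helicase (1.77 ± 0.16) and Ccnb2, a mitotic cyclin (2.90 ± 0.28), rose as well. Matching on depth left 1 of 9 testable S phase genes past the threshold, Dut (0.97 with adjusted p = 0.0045), and the S phase median was 0.23.

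Glycolysis and hypoxia genes rose in 15 of 22 cases and fell in 1, oxidative phosphorylation genes in 18 of 27 and proteasome genes in 13 of 19 with 2 lower. Without mouse 2 the oxidative phosphorylation count was 7 of 27 and the proteasome count 6 of 19 with 0 lower. Over all genes 853 of 9586 were higher in that setting. Ldha, which makes lactate, had 1089, 1291 and 839 CPM in subcluster 5, against 569.7, 504 and 468 CPM in subcluster 1 (log2 fold change 1.05 ± 0.12 SE, adjusted p = 3.2e-05). Cycs, which encodes cytochrome c, had 211, 306 and 278 CPM in subcluster 5, against 116, 118 and 122 CPM in subcluster 1 (log2 fold change 1.16 ± 0.13 SE, adjusted p = 2.9e-05). Psmb10 (-0.51 ± 0.12) and Psme1 (-0.40 ± 0.10), interferon-induced parts of the immunoproteasome and its activator, fell, in contrast to Psmb5 (0.78 ± 0.13). Without mouse 2, Psmb10 (-0.45 with adjusted p = 0.068) and Psme1 (-0.40 with adjusted p = 0.077) did not pass. Among matched cells 1 of 16 glycolysis genes, 0 of 27 oxidative phosphorylation genes and 0 of 19 proteasome genes passed, where 3.83% of all genes were higher. The 1 glycolysis gene was Slc2a3, a glucose transporter (1.12 with adjusted p = 0.034).

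**Figure D5:**
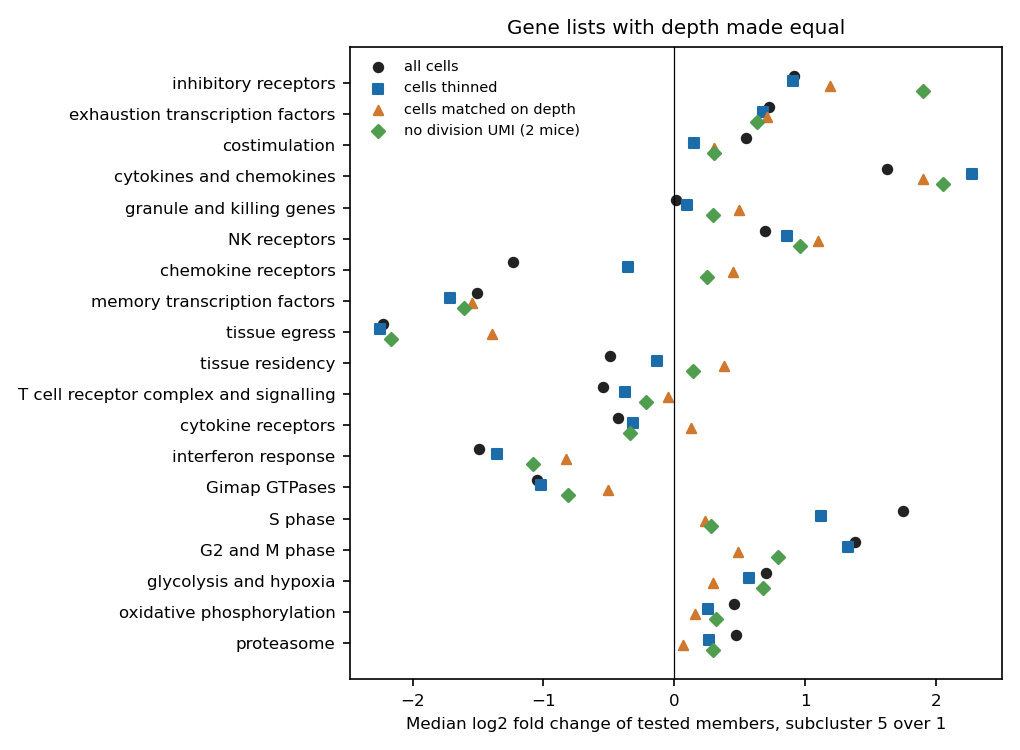
Median log2 fold change (subcluster 5 over 1) of 19 gene lists with all cells, with every cell thinned, with cells matched on depth, and without cells holding a division UMI (mice 1 and 2). The memory, egress and cytokine medians keep their sign in all 4 settings. The S phase median is 1.75 with all cells and 0.23 with matched cells. Among matched cells the chemokine receptor, cytokine receptor and residency medians change sign. Each median covers only the members testable in its setting.

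Genes outside the lists were named by their fold change. Nrgn (chr9:37544492-37552904), which encodes the calmodulin-binding protein neurogranin, had 529, 653 and 516 CPM in subcluster 5, against 8.43, 3.56 and 3.97 CPM in subcluster 1, with no overlap between the classes (log2 fold change 6.95 ± 0.21 SE, adjusted p = 4.4e-10). The matched change was 6.88 with adjusted p = 8.8e-12. Penk, the enkephalin precursor, had 461 UMIs in subcluster 5 and 0 in subcluster 1, at least 107-fold higher when 3 UMIs over the class are allowed. Ccdc184 and C2cd4b were at least 75.9-fold and 50.7-fold higher by the same bound. Serpine2, a protease inhibitor, had 29.2, 89.5 and 115 CPM in subcluster 5, against 0, 0 and 0.378 CPM in subcluster 1. Slc16a11, of the monocarboxylate transporter family, had 50.4, 77.0 and 84.3 CPM in subcluster 5, against 1.69, 0 and 0.378 CPM in subcluster 1. Serpine2, Slc16a11, Slc17a6 and Atp2b2 all rested on a few UMIs in subcluster 1, as did Igfbp7, which encodes a secreted growth factor-binding protein, and Serpinb9b, so no fold is given for them. Igfbp7 had 704 UMIs in subcluster 5 and 5 in subcluster 1. Rgs16, a regulator of G-protein signalling, had 299, 360.4 and 222 CPM in subcluster 5, against 52.2, 10.7 and 8.89 CPM in subcluster 1 (log2 fold change 4.08 ± 0.32 SE, adjusted p = 1.7e-06). Emb, which encodes embigin, had 53.1, 57.4 and 47.3 CPM in subcluster 5, against 458, 472 and 348 CPM in subcluster 1, low in all mice of subcluster 5 (log2 fold change -3.02 ± 0.13 SE, adjusted p = 8.6e-09). Trat1 (-3.75 ± 0.43), an adaptor of the T cell receptor complex, Actn2 (-3.70 ± 0.40), Pmepa1 (-3.36 ± 0.28), a gene induced by TGF-beta, Rtp4 (-3.04 ± 0.24) and Slco3a1 (-2.95 ± 0.24) fell too.

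Immediate-early and activation genes moved both ways, 4 of 20 higher and 9 lower in subcluster 5, beside 17.6% higher and 16.6% lower among all genes. Fos, a component of the AP-1 factor, had 153, 59.5 and 201 CPM in subcluster 5, against 610.1, 358 and 381 CPM in subcluster 1, lower in subcluster 5 of each mouse (log2 fold change -1.81 ± 0.23 SE, adjusted p = 6.8e-05; among matched cells -1.23 with adjusted p = 0.0060). Zfp36, whose product shortens the life of cytokine mRNAs, fell (-1.37 ± 0.15), while Nfkbia, the inhibitor induced by NF-kappa B (1.10 ± 0.13), and the phosphatase gene Dusp4 (1.84 ± 0.22) rose. Of 14 S100, annexin and galectin genes, 4 rose and 3 fell, near the shares over all genes. Anxa2 had 789, 932 and 681 CPM in subcluster 5, against 279.8, 193 and 204 CPM in subcluster 1, and was higher in every mouse of subcluster 5 (log2 fold change 1.85 ± 0.14 SE, adjusted p = 1.4e-06). Lgals1, which encodes galectin 1, had 2549.9, 2508 and 1942 CPM in subcluster 5, against 1412, 886 and 856 CPM in subcluster 1, without overlap (log2 fold change 1.19 ± 0.12 SE, adjusted p = 1.3e-05), and among matched cells both stayed higher, Anxa2 at 1.50 with adjusted p = 4.6e-06 and Lgals1 at 0.88 with adjusted p = 4.9e-04.

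Of 6 tested MHC class II genes, which T cells of mice do not make in quantity, 5 were lower in subcluster 5 and 0 higher. H2-Aa had 193, 94.6 and 126 CPM in subcluster 5, against 784, 217 and 168 CPM in subcluster 1, highest in subcluster 1 of mouse 1 (log2 fold change -1.27 ± 0.22 SE, adjusted p = 7.4e-04). In held-out UMIs 1 of the 6 was lower (15.3% of all genes), and without division UMIs 0 of 5 were (2.97% of all genes). In thinned cells 4 of 6 were lower (11.6% of all genes). Among matched cells 5 of 5 were lower (4.06% of all genes), with a median of -1.65 beside -0.96 with all cells. The matched H2-Aa change was -1.94 with adjusted p = 1.4e-04. Without cells holding UMIs of other types H2-Aa did not pass (-0.51 with adjusted p = 0.056). Of 10 heat shock genes 4 rose and 4 fell, with Hspa1a at 24.7, 68.9 and 67.0 CPM in subcluster 5, against 80.9, 505 and 66.8 CPM in subcluster 1, where subcluster 1 of mouse 2 stood far above all others.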

How the data were processed

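Transcriptomes of cells sorted as CD45+JAML+ from tumours of 3 mice were measured with 10x Genomics 5′ chemistry. Per the submitters' processing notes, reads went through Cell Ranger 3.1.0 (mm10) and Seurat 3.1.5. The percent of mitochondrial UMIs per cell was computed by the authors. The authors deposited UMI counts per gene and cell, not normalized, for 15416 genes and 5976 cells, and an annotation with each cell's hashtag and cluster numbers. In all 5976 cells the annotated UMI total equalled that of the matrix. The antibody-tag library was not used here. The annotation names the species as human, while the labels and gene symbols are mouse. Whether the hashtags stand for separate mice rests on their names and on the stated n of 3.

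The 8 cells with no hashtag were left out. UMI counts were summed per mouse and subcluster, and sums of under 10 cells were left out. edgeR 4.0.16 in R 4.3.3 was fitted with TMM scaling, filterByExpr and the mouse as a block, since both classes of a mouse share that mouse, with Benjamini-Hochberg adjustment over all 8436 genes and a threshold of 0.05. The fit was tested on simulated data. For held-out UMIs, each count was split binomially, and classes were rebuilt with leidenalg 0.10.2 from 2000 variable genes and 30 components. Thinning drew 6575 UMIs per cell, the 10th percentile, which left out 1 cell of subcluster 5 and 122 of subcluster 1. Matching took equal numbers per bin of 2000 UMIs in each mouse. Doublets were not called, and 1 alternative left out cells with 2 or more UMIs of Lyz2, C1qa, Cd79a, Siglech or Klrb1c. Further alternatives were RLE scaling, no filter on low counts, DESeq2 1.42.0, dropping the block, leaving out each mouse, a stricter threshold (0.01), summed libraries thinned to 593323 UMIs, cells without a division UMI, and the CD8 gate.

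Named genes were all list members, the 12 largest changes per direction among called genes that moved alike in all mice and reached 30 CPM in whichever class was higher, and a fixed set. Ribosomal protein and mitochondrial genes, antigen receptor segments and gene models without a name could not enter the 12. Some list members are counted but not reported by name here. The subclusters, members and lists were chosen with earlier results of these data known. Coordinates are from GENCODE on GRCm38 (mm10), and promoter sequences from RefSeq.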

Additional observations from a re-analysis of the deposited data

How the results depend on the processing

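The 2889 calls (1485 higher and 1404 lower in subcluster 5) became 1577 (840 and 737) with DESeq2, 1805 (928 and 877) at a threshold of 0.01, 1351 (660 and 691) in thinned cells, 1754 (895 and 859) in thinned libraries, 278 (135 and 143) in cells matched on depth, and 334 (171 and 163) without division UMIs, where mouse 3 dropped out with 8 cells of subcluster 5. The last settings also tested fewer genes and cells. Leaving out 1 mouse gave 1623 to 2983 calls (853 to 1548 higher and 770 to 1435 lower), the lowest without mouse 2. RLE scaling gave 2908, no filter on low counts 3159, the CD8 gate 2533 and cells without UMIs of other types 2116. The mice pair the classes, since both came from each mouse, and with no replicate block 3255 genes passed (1675 and 1580). Rebuilding the classes with another seed gave 2306 calls in held-out UMIs, against 2278. Of 2408 calls testable in thinned cells, 1307 passed in the same direction.

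Over 156 named genes and the settings in which each could be tested, 1720 of 1901 values kept direction and side of the threshold, 123 lost the call, 21 gained one and 37 changed sign. The sign changes among matched cells were Cd3g (0.43), Cd8b1 (0.44), Ctla2a (0.024), Cxcr6 (1.01), Fasl (0.25), Id2 (0.067), Nkg7 (0.45) and Srgn (0.17). Without division UMIs they were Bach2 (-0.57), Cd3g (0.33), Cd8b1 (0.41), Ctla2a (0.22), Cxcr6 (0.53), Eomes (-0.19), Fasl (0.28), Id2 (0.0050), Nkg7 (0.38), Srgn (0.19) and Vsir (0.18). Cxcr6, near 0 with all cells, was 0.0054 with RLE, 0.0052 with DESeq2, 0.029 with no replicate block, 0.092 in thinned cells, 0.012 in thinned libraries, 0.11 without UMIs of other types and -0.12 to 0.24 when 1 mouse was left out. Srgn (0.037) and Tnf (0.13) changed sign in thinned cells, Gbp3 (0.082), Hspa1a (0.11) and Srgn (0.043) without UMIs of other types, and Cd8a (-0.0091) in the CD8 gate. With 1 mouse left out, Serpina3g ranged over -0.16 to 0.42, Gbp3 over -0.53 to 0.087, Bach2 over -0.32 to 0.94, Cd8b1 over -0.30 to 0.0070 and Nkg7 over -0.28 to 0.070. Without division UMIs 35 genes lost their call, with Gzmk and Jaml among them. The causes were not tested.

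Depth limits what can be compared: 39 cells carry subcluster 5 of mouse 3, and matched cells number 30, 18 and 16 per class, so low genes such as S1pr1 could not be tested there. P-values rest on 3 mice.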

Other observations

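Receptor beta chain segments were spread unequally over the mice. In subcluster 5 Trbv2 took 31 of 154 Trbv UMIs in mouse 1 (20.1%), 97 of 145 in mouse 2 (66.9%) and 4 of 16 in mouse 3 (25%). In subcluster 1 it took 4 of 27 (14.8%), 1 of 51 (1.96%) and 8 of 207 (3.86%). In mouse 2 a Trbv2 UMI was found in 34 of the 92 cells of subcluster 5 (37.0%). Trbv19 took 69 of 207 Trbv UMIs in subcluster 1 of mouse 3 (33.3%), in 64 of 597 cells. Clones were not called.

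The strongly dividing subcluster 8 lay between the compared classes for PD-1, with Pdcd1 at 256, 199 and 131 CPM in mice 1, 2 and 3, while Ifit3 was at 9.23, 11.5 and 31.6 CPM and Tcf7 at 14.5, 48.1 and 60.7 CPM. Subcluster 7 was nearer to subcluster 1, with Pdcd1 at 109, 90.9 and 81.3 CPM, Ifit3 at 91.3, 141 and 132 CPM and Gzmk at 71.9, 71.3 and 204 CPM. Its Tcf7 was 210, 219 and 94.8 CPM. Gzmk in subcluster 8 was 77.5, 46.8 and 158 CPM, again highest in mouse 3. These levels are descriptions of the authors' clusters, with no test.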
